A study of Mus musculus with 12 samples.

Results

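Mouse rods that received an expression vector carrying Csnk2a1 (pcDNA4c mCsnk2a1) were compared with rods that received a control short hairpin RNA (shRNA Control), across all genes, in 6 of the 12 libraries of the series. The comparison sets the Csnk2a1 vector against a control group other than its own. Its own control, pcDNA4c Control, held many macrophage transcripts, whereas shRNA Control held few. The price of that choice is that the plasmid backbone and the insert differ together between the groups, so an effect of Csnk2a1 and an effect of the backbone cannot be told apart here.

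The series holds 4 groups of 3 libraries, namely pcDNA4c mCsnk2a1, shRNA mCsnk2a1 (a hairpin against Csnk2a1), shRNA Control and pcDNA4c Control. In every group the retina had been electroporated, which carries plasmid DNA into cells with an electric pulse, and was taken at postnatal day 8. Intact GFP-positive rods were picked by hand after papain treatment, and each library was made from the total RNA of 50 to 100 cells with a low-input PCR kit that keeps strand. The labels give the 3 RNA samples of a treatment as independent but do not say whether they came from separate mice, and p-values accordingly describe only how these samples scatter. Strain, the promoter of the GFP plasmid and that of the Csnk2a1 insert are not given in the sources used here.

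Protein kinase CK2 is a constitutively active serine/threonine kinase. It is a tetramer of catalytic alpha or alpha-prime subunits around a dimer of regulatory beta subunits. Rods are the photoreceptors of dim-light vision. In rods, NRL and CRX switch on the genes of the phototransduction cascade, which turns absorbed light into closure of cation channels, and NR2E3, itself under NRL, holds cone genes down. The study asked how CK2 bears on NRL-driven expression. Rods have a high demand for energy and draw on both glycolysis and mitochondria, which is why those gene groups were listed beside the rod program.

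The 6 libraries were rod-like, but those of pcDNA4c mCsnk2a1 were uneven in rod signal. Summed estimated counts were 2296056 to 3551328 in pcDNA4c mCsnk2a1 and 1608926 to 1856775 in shRNA Control. At an equal depth of 1609099 rounded counts, 16654 ± 1565 genes were detected in pcDNA4c mCsnk2a1 and 20959 ± 978 in shRNA Control (SD, n = 3 each; two-sided exact permutation p = 0.1, the smallest that 3 against 3 libraries allow). This depth is a total of estimated counts after rounding, so numbers of reads were not matched. Sag, Crx, Nr2e3 and Nrl had values in all 6 libraries, while Opn1sw, the short-wavelength cone opsin, was listed at 0 in all 6. Library pcDNA4c mCsnk2a1 1 had the lowest rod signal of its group: its 23 rod phototransduction entries summed to 6437 CPM (counts scaled to a fixed library total). Libraries 2 and 3 of that group summed to 13391 and 13659 CPM, and those of shRNA Control to 6725 to 8965 CPM. Library 1 was thus closer to the controls than to the rest of its group. For several gene lists the values without that library are given too, to be read against a median over all genes of -0.44 in that fit. Macrophage and microglia markers summed to 145 to 203 CPM in pcDNA4c mCsnk2a1, 207 to 311 CPM in shRNA Control and 3773 to 4803 CPM in pcDNA4c Control.

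Csnk2a1 itself (chromosome 2) read 49.9, 145 and 122 CPM in pcDNA4c mCsnk2a1, against 66.9, 57.2 and 8.51 CPM in shRNA Control. The lowest vector library lay inside the control range, so the groups overlapped. The log2 difference was 1.25 (SE 0.88, edgeR adjusted p = 0.661), and gene counts do not separate plasmid transcripts from those of the chromosomal gene. Csnk2a2, the alpha-prime catalytic subunit, read 173, 1.57 and 32.6 CPM in pcDNA4c mCsnk2a1 and 6.74, 16.1 and 10.8 CPM in shRNA Control. Csnk2b, the regulatory subunit, read 32.8, 32.9 and 94.0 CPM in pcDNA4c mCsnk2a1 and 76.7, 50.6 and 97.6 CPM in shRNA Control. Neither separated the groups, and neither passed (edgeR adjusted p = 0.471 and 0.908). The sign of Csnk2a2 turned when the deposited CPM table was tested, which lacks pcDNA4c mCsnk2a1 1 as used here. Leaving out pcDNA4c mCsnk2a1 1, the only vector library inside the control range of Csnk2a1, sets the groups apart for that gene by construction. The difference was then 1.65 and did not pass (edgeR adjusted p = 0.442).

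Across the transcriptome few genes differed beyond the spread between libraries. Of 20267 genes tested, 4 were called higher in pcDNA4c mCsnk2a1 (0.0197% of genes, edgeR adjusted p under 0.05) and 0 were called lower (0%). The biological coefficient of variation of the fit was 1.26, so libraries of so few cells differed widely even within a group. An unadjusted p under 0.05 was reached by 744 genes above (3.67%) and 1447 below (7.14%), and groups did not overlap for 882 above (4.35%) and 1554 below (7.67%). Genes called lower numbered 291 with DESeq2, 1 with limma voom and 7 with limma on deposited CPM values. The median log2 difference over all genes tested was -0.14, and -0.31 when libraries were scaled by their totals alone, and list medians below are to be read against it. Without pcDNA4c mCsnk2a1 1 the calls came to 14 higher (0.0601% of the genes then tested) and 3 lower (0.0129%).

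Of the 4 calls, 3 are 1 signal. Gm23935 (chromosome 16, 11144125 to 11144181, plus strand, GRCm38), Gm24270 (chromosome 9, 56223715 to 56223771, minus strand) and Gm24245 (chromosome 4, 139338304 to 139338360, plus strand) are annotated as miRNA genes whose transcripts of 57 nucleotides have the same sequence, so reads cannot be assigned to any 1 of them. These predicted entries, and the near copy Gm24187 (chromosome 13, 9834469 to 9834525, minus strand), were named after their values were seen. The sequence is shown because the strongest call rests on it alone, and the near copy because a single base parts it from the called entries. Both are given 5′ to 3′ from GRCm38, with the capital at position 11, counted from the 5′ end, where they differ (G11A).

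Gm23935: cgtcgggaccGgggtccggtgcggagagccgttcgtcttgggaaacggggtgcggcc

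Gm24187: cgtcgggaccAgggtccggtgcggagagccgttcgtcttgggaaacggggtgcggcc

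The shared sequence is 73.7% G and C. Of 141767 reference transcripts searched, 3 held all of it, and 6 shared a word of 20 bases with it. None of the 3 symbols was found in the RefSeq miRNA table, and whether the signal comes from a miRNA precursor or from another RNA with these bases was not tested.

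Gm23935 read 3486, 1978 and 2289 CPM in pcDNA4c mCsnk2a1, 1470, 580 and 801 CPM in shRNA mCsnk2a1, 559, 416 and 483 CPM in shRNA Control, and 6503, 6404 and 6322 CPM in pcDNA4c Control. Every vector library with the insert lay above every control shRNA library and below every pcDNA4c Control library. The log2 difference from shRNA Control was 2.41 (SE 0.31, edgeR adjusted p = 0.00155), while from pcDNA4c Control it was -1.31 (edgeR adjusted p = 0.202). The call was lost with limma voom and when only the 6 libraries were fitted. The control groups, which carry no Csnk2a1 construct, differed more from each other, by -3.72 for shRNA Control minus pcDNA4c Control (edgeR adjusted p = 4.04e-06). These comparisons share libraries and are values set side by side. As a share of all TPM (transcripts scaled to a fixed total per library after correction for length) the 3 entries together held 24.2%, 13.2% and 15.3% in pcDNA4c mCsnk2a1, against 4.49%, 3.40% and 3.69% in shRNA Control. Gm24187 stayed far below them, at 101, 35.1 and 88.5 TPM in pcDNA4c mCsnk2a1 and 52.9, 48.3 and 12.7 TPM in shRNA Control, where the groups overlapped. Gm23935 itself was at 43846 to 80754 TPM in pcDNA4c mCsnk2a1 and 11320 to 14954 TPM in shRNA Control.

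**Figure D1:**
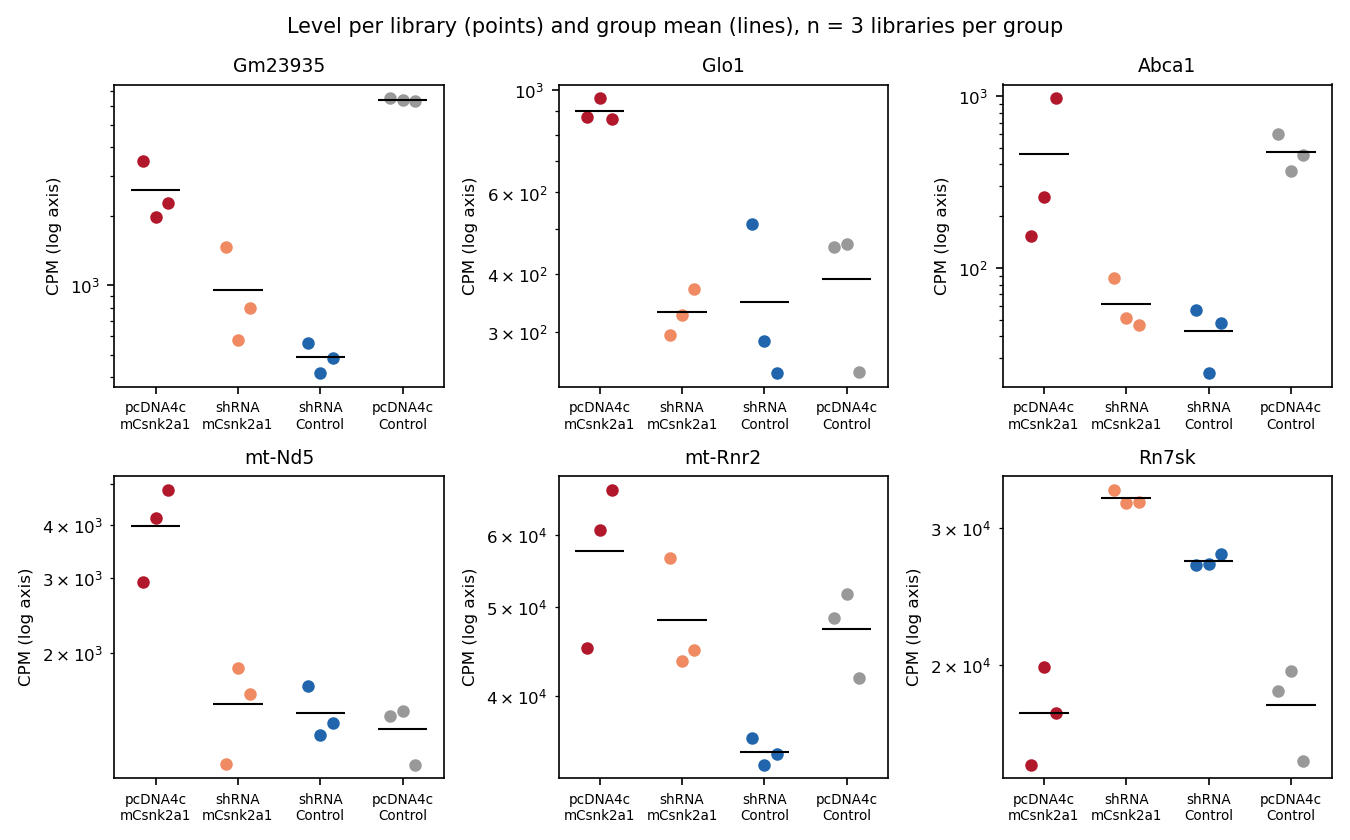
Level per library in CPM on a log axis for 6 genes in the 4 groups (points: libraries, n = 3 per group; line: group mean). Gm23935 and Abca1 are high in both pcDNA4c groups and low in shRNA Control, Glo1 and mt-Nd5 are highest in pcDNA4c mCsnk2a1, and Rn7sk is low in both pcDNA4c groups.

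The deposited gene values follow TPM and not reads, which bears on every level given here. In 98.6% of 4934 genes examined, the gene value was the summed TPM of its transcripts times 1 constant per gene and 1 per library, so a gene whose signal moves to a short transcript rises without more reads. Read-like counts were therefore rebuilt, after the data had been seen, from each transcript's TPM and an effective length (24.1 nucleotides for a transcript of 57). For a gene with 1 transcript, rebuilding multiplies the value by 1 constant per gene and 1 per library. Its difference can then move only with the scaling of libraries, so the rebuilding is no test of such a gene. Gm23935, with its transcript of 57 nucleotides, differed by 2.35 on that scale (edgeR adjusted p = 7.01e-06).

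On the rebuilt counts 15 genes were called higher (0.0735% of 20400 tested) and 4 lower (0.0196%), and the 3 entries of 57 nucleotides were the calls shared with the deposited gene table. Transcripts of the mitochondrial genome made up 5 of the 15, namely mt-Nd4, mt-Nd5, mt-Co1, mt-Cytb and mt-Rnr2. Other genes called higher were Abca1, Glo1, Olfm1, Scd2, Atn1, Ankrd33b and the predicted gene Gm1821. Those called lower were Rn7sk, Ephx2, Gm10222 and Vmn1r13. On that scale Gm1821 read 349, 227 and 166 CPM in pcDNA4c mCsnk2a1 and 42.9, 60.2 and 91.8 CPM in shRNA Control. It read 473, 363 and 312 CPM in pcDNA4c Control and 330, 254 and 363 CPM in shRNA mCsnk2a1. Vmn1r13, a vomeronasal receptor gene, read 64.3, 72.0 and 32.1 CPM in pcDNA4c mCsnk2a1 and 262, 291 and 248 CPM in shRNA Control. Gm10222 was listed at 0 in pcDNA4c mCsnk2a1 and read 105, 132 and 18.8 CPM in shRNA Control. It was listed at 0 in pcDNA4c Control as well, and read 0, 8.50 and 168 CPM in shRNA mCsnk2a1. Levels below are from the deposited gene table unless the rebuilt counts are named, and the genes from the rebuilt counts were named after their values were seen.

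Transcripts of the mitochondrial genome were the gene group with the most members past the threshold on rebuilt counts. The genome is transcribed as long strands that are cut into messenger RNAs for subunits of the respiratory chain and ATP synthase, and into 2 ribosomal RNAs. Of 13 protein-coding genes 12 were tested, and 11 of them lay above 0, with a median log2 difference of 1.15. At an unadjusted p under 0.05, 9 of the 12 lay above, and for 9 the groups did not overlap (0 in the other direction in both counts). The shares of all genes tested above 0 were 3.67% at that p and 4.35% without overlap. On the deposited table edgeR called 0 of them and DESeq2 called 4 higher, while edgeR called 4 on the rebuilt counts and 5 without pcDNA4c mCsnk2a1 1.

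mt-Nd5, a subunit of complex I, read 2935, 4167 and 4851 CPM in pcDNA4c mCsnk2a1, 1090, 1837 and 1599 CPM in shRNA mCsnk2a1, 1668, 1280 and 1365 CPM in shRNA Control, and 1413, 1455 and 1087 CPM in pcDNA4c Control. The vector libraries lay above all 9 libraries of the other groups. The difference from shRNA Control was 1.47 (SE 0.26, edgeR adjusted p = 0.0788), and 1.40 on rebuilt counts (edgeR adjusted p = 0.00680).

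mt-Nd4, of the same complex, read 1868, 2760 and 3609 CPM in pcDNA4c mCsnk2a1 and 979, 1056 and 1018 CPM in shRNA Control (1.43, SE 0.28, edgeR adjusted p = 0.0976; 0.0166 on rebuilt counts). mt-Co1, the catalytic subunit of cytochrome oxidase, read 5247, 6781 and 8011 CPM in pcDNA4c mCsnk2a1 and 3512, 3185 and 3073 CPM in shRNA Control (1.04, SE 0.20, edgeR adjusted p = 0.0889; 0.0316 on rebuilt counts). mt-Cytb, of complex III, read 3929, 6088 and 7125 CPM in pcDNA4c mCsnk2a1 and 2646, 2757 and 2245 CPM in shRNA Control (1.16, SE 0.23, edgeR adjusted p = 0.123; 0.0316 on rebuilt counts). In each of these 3 genes the vector libraries lay above every control shRNA library, with pcDNA4c mCsnk2a1 1 the lowest of its group.

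The remaining coding genes were less even. mt-Nd2 read 1392, 2410 and 2543 CPM in pcDNA4c mCsnk2a1 and 833, 1028 and 795 CPM in shRNA Control (1.26, SE 0.29, edgeR adjusted p = 0.296, and 0.0122 without pcDNA4c mCsnk2a1 1). mt-Nd1, mt-Nd4l, mt-Nd6 and mt-Atp8 differed by 0.69 to 2.21, none past the threshold. mt-Co2 was the member below 0 (-0.53, SE 1.92), with 933, 1.88 and 4.03 CPM in pcDNA4c mCsnk2a1 and 1023, 4.76 and 328 CPM in shRNA Control, a scatter within both groups that left its direction unsettled. mt-Atp6, at 2811, 3039 and 245 CPM in pcDNA4c mCsnk2a1 and 514, 811 and 1454 CPM in shRNA Control, overlapped as well. mt-Co3 was apart by a narrow margin, at 202, 174.2 and 207 CPM in pcDNA4c mCsnk2a1 and 133, 173.9 and 147 CPM in shRNA Control (0.36, SE 0.49).

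Together the mitochondrial protein-coding genes held 2.20% to 2.82% of the counts in pcDNA4c mCsnk2a1, 1.16% to 1.39% in shRNA mCsnk2a1, 1.28% to 1.42% in shRNA Control and 0.966% to 1.25% in pcDNA4c Control. The vector group with the insert averaged 2.55% ± 0.318 and shRNA Control 1.32% ± 0.0795 (SD, n = 3 each; exact permutation p = 0.1). The 86 tested genes of nuclear-encoded oxidative phosphorylation split evenly: 43 lay above 0 and 43 below, with a median of 0.02. Without pcDNA4c mCsnk2a1 1 they leaned upward, with 53 of 88 above 0 and a median of 0.24, and on rebuilt counts 37 of 83 lay above 0 with a median of -0.08. The mitochondrial share of all counts, ribosomal RNA included, was 11.3% ± 1.63 in pcDNA4c mCsnk2a1 and 8.51% ± 0.224 in shRNA Control (SD, n = 3; exact permutation p = 0.1). The vector libraries also held fewer detected genes (above). The part of either in the differences was not tested.

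**Figure D2:**
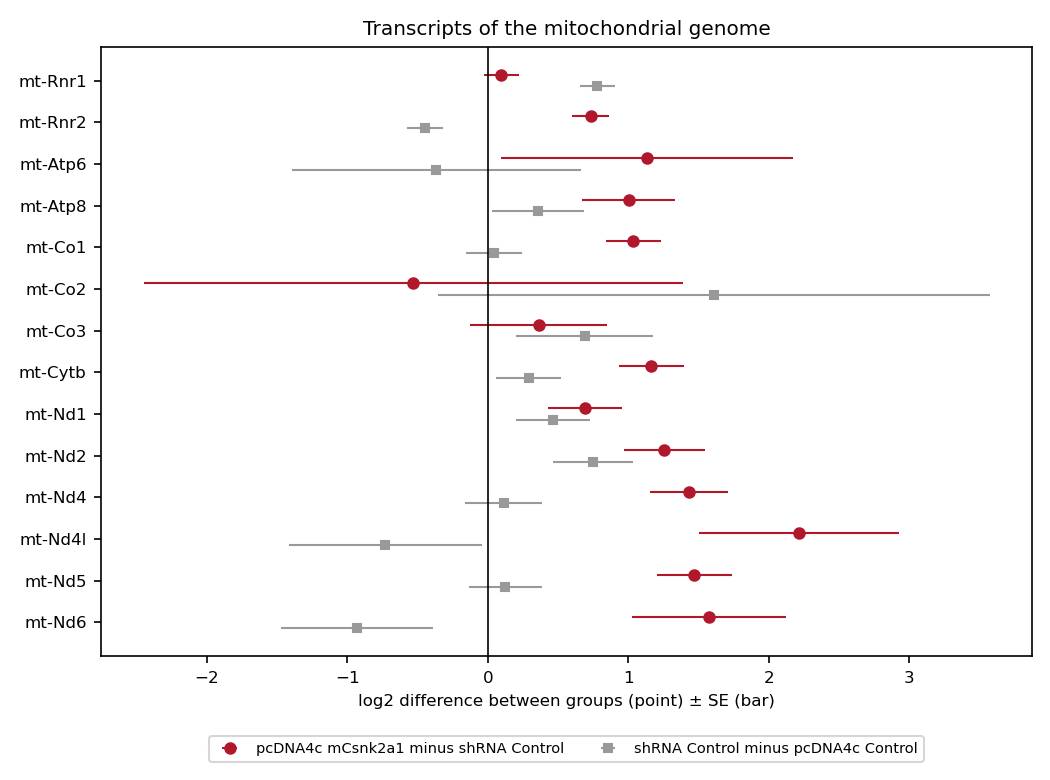
Log2 differences with SE for 2 ribosomal RNAs and 12 protein-coding genes of the mitochondrial genome, pcDNA4c mCsnk2a1 minus shRNA Control (circles) and shRNA Control minus pcDNA4c Control (squares), n = 3 libraries per group. Of the coding genes 11 of 12 circles lie to the right of 0, and the ribosomal RNAs part, at 0.10 for mt-Rnr1 and 0.73 for mt-Rnr2.

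The pair of mitochondrial ribosomal RNAs parted. mt-Rnr2, the 16S RNA of the large mitochondrial subunit, read 45110, 60640 and 67170 CPM in pcDNA4c mCsnk2a1 and 35990, 33620 and 34530 CPM in shRNA Control (0.73, SE 0.13, edgeR adjusted p = 0.0761, and 0.0331 on rebuilt counts). mt-Rnr1, the 12S RNA of the small subunit, read 28580, 38510 and 42620 CPM in pcDNA4c mCsnk2a1 and 32990, 33310 and 36210 CPM in shRNA Control (0.10, SE 0.12, edgeR adjusted p = 0.889), a sign that turned when libraries were scaled by their totals. The groups were apart for the 16S RNA and overlapped for the 12S RNA.

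Taken as a ratio within each library, an idea that came after the values were seen, mt-Rnr2 over mt-Rnr1 was 1.578, 1.575 and 1.576 in pcDNA4c mCsnk2a1, 1.087, 0.833 and 0.768 in shRNA mCsnk2a1, 1.091, 1.01 and 0.954 in shRNA Control, and 2.368, 2.393 and 2.37 in pcDNA4c Control (estimated counts, not corrected for length). The 3 vector libraries with the insert agreed within 0.00185 (SD) and lay between the other pcDNA4c group and both shRNA groups, without overlap (exact permutation p = 0.1 against shRNA Control). Such a ratio does not depend on how libraries are scaled.

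Among small structural RNAs of the nucleus and cytosol, the groups parted for Rn7sk. Rn7sk, the 7SK RNA that holds the elongation kinase P-TEFb inactive, read 14880, 19880 and 17310 CPM in pcDNA4c mCsnk2a1, 33550, 32270 and 32400 CPM in shRNA mCsnk2a1, 26820, 26910 and 27770 CPM in shRNA Control, and 18510, 19650 and 15020 CPM in pcDNA4c Control. Both pcDNA4c groups lay below both shRNA groups, without overlap. The difference from shRNA Control was -0.65 (SE 0.12, edgeR adjusted p = 0.0889) and -0.71 on rebuilt counts, where it passed (edgeR adjusted p = 0.0213); from pcDNA4c Control it was -0.03.

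Rn7s1, a 7SL RNA of the signal recognition particle, did not part the groups, at 20770, 28580 and 24470 CPM in pcDNA4c mCsnk2a1 and 24140, 24780 and 24260 CPM in shRNA Control (0.01, SE 0.13, edgeR adjusted p = 0.996), a sign that turned under other scalings. 7SL RNA has near-identical copies in the genome, so its counts may be split between entries. The ratio of Rn7sk to Rn7s1 within a library was 0.696 to 0.717 in pcDNA4c mCsnk2a1, 0.884 to 1.07 in shRNA mCsnk2a1, 1.09 to 1.15 in shRNA Control and 1.60 to 1.71 in pcDNA4c Control (exact permutation p = 0.1 between pcDNA4c mCsnk2a1 and shRNA Control; chosen after the values were seen). The 11 tested RNA polymerase III transcripts had a median difference of -0.05, with 4 above 0, and on the deposited table edgeR called 0 of them and limma voom 1 lower.

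**Figure D3:**
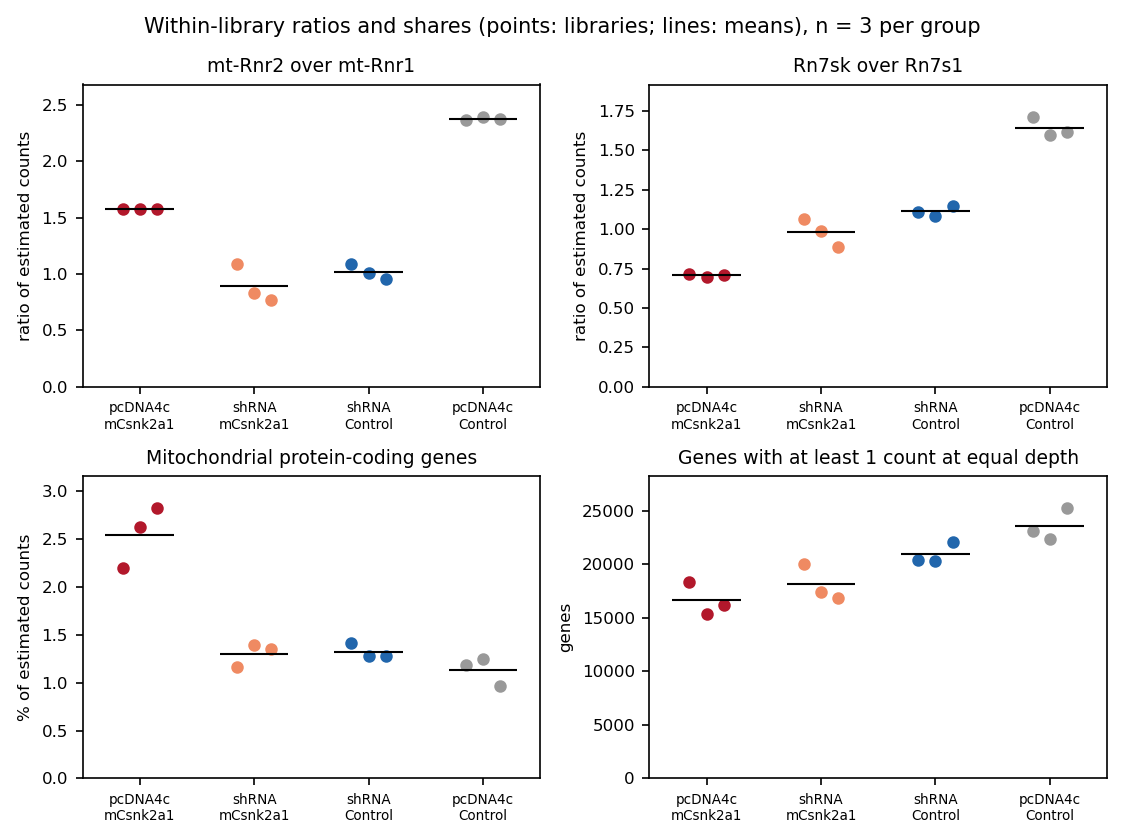
Within-library ratios and shares in the 4 groups (points: libraries, n = 3; line: mean): mt-Rnr2 over mt-Rnr1, Rn7sk over Rn7s1, the share of counts in mitochondrial protein-coding genes, and genes detected at equal depth. In both ratios the libraries of pcDNA4c mCsnk2a1 do not overlap those of shRNA Control and those of pcDNA4c Control lie above all others, and the coding share is highest in pcDNA4c mCsnk2a1, at 2.20% to 2.82%.

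Genes of the rod program lay mostly above 0 without passing. Of 21 tested entries for rod phototransduction 16 were above 0, and 0 were called. At an unadjusted p under 0.05, 4 lay above and 0 below, against 3.67% and 7.14% of all genes tested. The median log2 difference was 0.35, or 0.53 over the 19 entries with a value in both groups. Gnb1, the beta subunit of transducin, read 683, 1714 and 1670 CPM in pcDNA4c mCsnk2a1 and 877, 602 and 508 CPM in shRNA Control (1.03, SE 0.35, edgeR adjusted p = 0.461). Libraries 2 and 3 of the vector group lay above all 3 control libraries and library 1 lay among them.

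Cnga1, the channel subunit that cGMP opens, read 175, 395 and 367 CPM in pcDNA4c mCsnk2a1 and 133, 82.8 and 137 CPM in shRNA Control, apart in all libraries (1.41, SE 0.48, edgeR adjusted p = 0.461). Slc24a1, the exchanger that extrudes calcium, was apart too, at 34.6, 51.7 and 73.2 CPM in pcDNA4c mCsnk2a1 and 17.6, 25.0 and 9.08 CPM in shRNA Control. Gnat1, the transducin alpha subunit, read 149, 154 and 137 CPM in pcDNA4c mCsnk2a1 and 91.3, 113 and 86.8 CPM in shRNA Control (0.60, SE 0.48), the third member whose groups did not overlap. Pde6b, of the phosphodiesterase that destroys cGMP, differed by 0.73 (SE 0.39) and Sag, the rod arrestin, by 0.20 (SE 0.29).

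Summed over the list, rod phototransduction stood at 11163 ± 4095 CPM in pcDNA4c mCsnk2a1 and 7680 ± 1156 CPM in shRNA Control (SD, n = 3 each; exact permutation p = 0.4). Without pcDNA4c mCsnk2a1 1 the difference was 5845 CPM in place of 3482 CPM, a move upward that follows from its having been singled out for the lowest sum of this list. Without it 20 of 23 entries lay above 0, with a median of 0.72, and none was called. At an unadjusted p under 0.05, 9 then lay above and 0 below, against 951 and 1680 of the 23294 genes tested. The sum was highest in shRNA mCsnk2a1, at 13969 to 17170 CPM, and was 6383 to 8102 CPM in pcDNA4c Control.

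The transcription factors of the program did not separate the groups as a set, with 14 of 19 above 0, a median of 0.38, or 0.70 without pcDNA4c mCsnk2a1 1, and 0 called in either. Nrl read 102, 386 and 677 CPM in pcDNA4c mCsnk2a1 and 302, 356 and 357 CPM in shRNA Control, a spread in the vector group that spans the controls and leaves no settled sign (0.20, SE 0.58, edgeR adjusted p = 0.974). Crx read 570, 805 and 1041 CPM in pcDNA4c mCsnk2a1 and 587, 730 and 556 CPM in shRNA Control (0.37, SE 0.31). Nr2e3 read 318, 1096 and 823 CPM in pcDNA4c mCsnk2a1 and 805, 304 and 584 CPM in shRNA Control (0.40, SE 0.41). Samd7, a Polycomb-associated repressor in rods, was the member with the smallest p, at 332, 628 and 637 CPM in pcDNA4c mCsnk2a1 and 186, 307 and 154 CPM in shRNA Control (1.31, SE 0.45, edgeR adjusted p = 0.461).

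Outer segment and synapse genes showed the same leaning. Of 32 outer segment and cilium genes 21 lay above 0 (median 0.29, or 0.45 without pcDNA4c mCsnk2a1 1), 2 of them with an unadjusted p under 0.05. Those were Prom1, which shapes the disc rims, at 293, 910 and 697 CPM in pcDNA4c mCsnk2a1 and 166, 285 and 395 CPM in shRNA Control, and Rp1, of the axoneme, with a difference of 0.65 (SE 0.28). Of 24 photoreceptor synapse genes 20 lay above 0 (median 0.37, or 0.66 without pcDNA4c mCsnk2a1 1). Among all genes tested the groups were apart for 4.35% above 0 and 7.67% below. In these lists, groups did not overlap for 3 outer segment and 4 synapse genes above 0, and for 0 and 1 below. Without that library the counts were 13 and 11 above, and 2 and 1 below. Fewer libraries separate more easily: over all 23294 genes then tested, groups did not overlap for 2190 above and 3129 below. The library had also been singled out for its low rod signal. Snap25, of the vesicle fusion machinery, read 437, 868 and 800 CPM in pcDNA4c mCsnk2a1 and 324, 193 and 212 CPM in shRNA Control (1.53, SE 0.43, edgeR adjusted p = 0.424). Syp and Sv2b, proteins of the vesicle membrane, differed by 1.10 (SE 0.41) and 1.64 (SE 0.70). Of these only Snap25 and Syp separated the groups.

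Of 18 cone entries tested, in which Guca1a appears again as a patch copy with the same values, 8 lay above 0 and 9 below (median -0.11). At an unadjusted p under 0.05 there were 0 in either direction. On rebuilt counts 7 of 19 lay above 0 with a median of -0.62, and without pcDNA4c mCsnk2a1 1 it was 7 of 20 with a median of -0.37. Arr3, cone arrestin, was listed at 0 in pcDNA4c mCsnk2a1 1 and 3 and read 22.6 CPM in library 2, against 0, 0 and 15.9 CPM in shRNA Control, so its sign rests on 1 library per group.

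Glycolysis was the group next to the mitochondrial genes. Of 20 genes 16 lay above 0 with a median of 0.78, and 8 had an unadjusted p under 0.05 above and 0 below. The groups did not overlap for 8 above 0 and for 1 below. Over all genes tested the shares above 0 were 3.67% at that p and 4.35% without overlap. On rebuilt counts 8 genes reached that p above and 1 below, with 8 and 1 not overlapping. edgeR called 0 on the deposited table, on rebuilt counts and without pcDNA4c mCsnk2a1 1, and DESeq2 called 2 higher on the deposited table. Slc2a1, the glucose transporter of photoreceptors, read 300.5, 210 and 583 CPM in pcDNA4c mCsnk2a1, 124, 48.3 and 79.2 CPM in shRNA mCsnk2a1, 133, 66.1 and 62.4 CPM in shRNA Control, and 144, 114 and 82.5 CPM in pcDNA4c Control. The vector group lay above all 9 other libraries (2.06 from shRNA Control, SE 0.57, edgeR adjusted p = 0.419).

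Pgam1, phosphoglycerate mutase, read 284, 251 and 417 CPM in pcDNA4c mCsnk2a1 and 79.3, 92.3 and 137 CPM in shRNA Control (1.62, SE 0.50, edgeR adjusted p = 0.425). Eno1, enolase, read 729, 898 and 736 CPM in pcDNA4c mCsnk2a1 and 382, 392 and 602 CPM in shRNA Control (0.78, SE 0.34). Ldha, which turns pyruvate into lactate, read 799, 775 and 1030 CPM in pcDNA4c mCsnk2a1 and 503, 525 and 547 CPM in shRNA Control (0.72, SE 0.31). These 3 genes had no overlap. Pkm, pyruvate kinase, did overlap, with a difference of 0.78 (SE 0.33). Summed, the list stood at 5414 to 8451 CPM in pcDNA4c mCsnk2a1, 4138 to 4829 CPM in shRNA mCsnk2a1, 4001 to 4612 CPM in shRNA Control and 3538 to 3893 CPM in pcDNA4c Control.

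**Figure D4:**
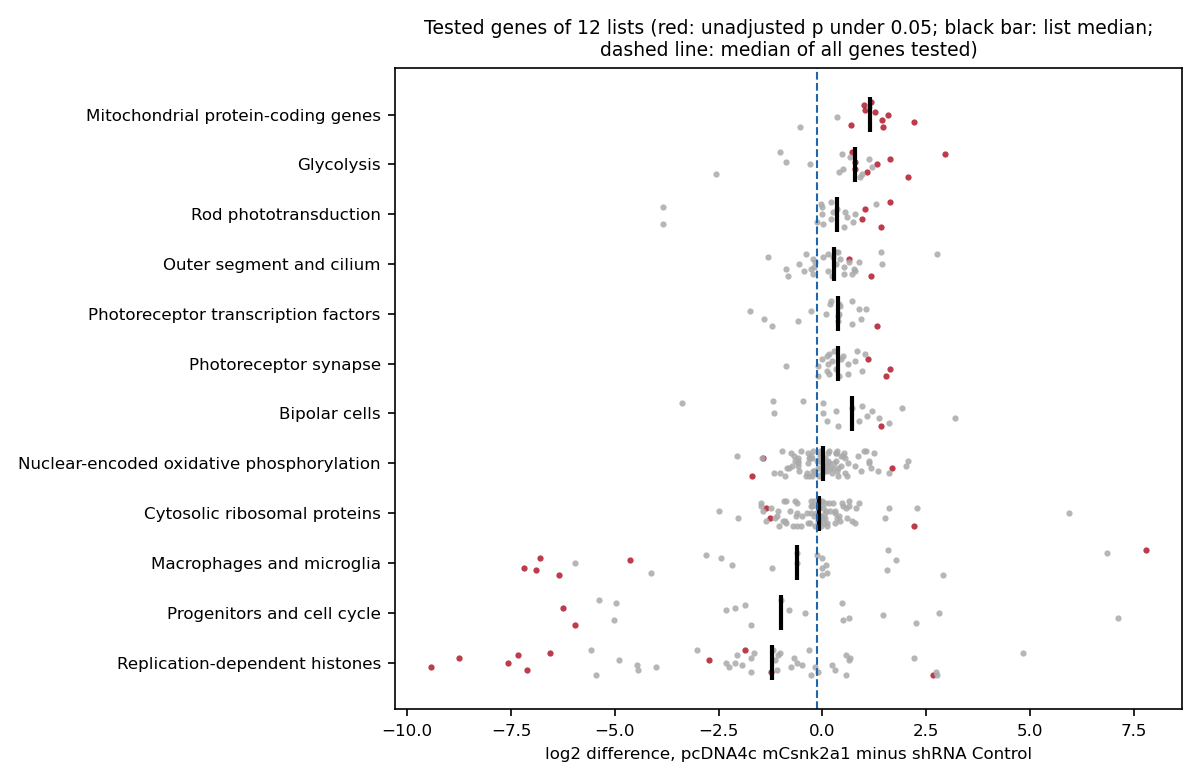
Log2 difference of each tested gene, pcDNA4c mCsnk2a1 minus shRNA Control, for 12 lists (points: genes, red where the unadjusted p is under 0.05; black bar: list median; dashed line: median of all genes tested, -0.14). Mitochondrial protein-coding genes and glycolysis sit to the right of the dashed line, at medians of 1.15 and 0.78; points beyond about -5 or 5 are genes at or near 0 in 1 group, whose fitted values depend on the prior count.

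Abca1 and Scd2 were among the genes that passed on rebuilt counts. Abca1 (chromosome 4), which exports cholesterol to lipoproteins, read 154, 260 and 972 CPM in pcDNA4c mCsnk2a1, 87.1, 51.1 and 46.7 CPM in shRNA mCsnk2a1, 57.0, 24.4 and 47.7 CPM in shRNA Control, and 601, 368 and 455 CPM in pcDNA4c Control. Both pcDNA4c groups lay above both shRNA groups (3.42 from shRNA Control, SE 0.63, edgeR adjusted p = 0.0889; -0.04 from pcDNA4c Control). The high value of library 3 came with a processed transcript of 775 nucleotides, at 43.1 TPM there and at 0 in libraries 1 and 2. On rebuilt counts the vector libraries read 199, 330 and 257 CPM and those of shRNA Control 74.8, 19.7 and 64.7 CPM (2.30, edgeR adjusted p = 0.0213). Scd2, a stearoyl-CoA desaturase, read 368, 349 and 415 CPM in pcDNA4c mCsnk2a1 and 92.1, 88.2 and 108 CPM in shRNA Control on rebuilt counts (1.97, SE 0.37, edgeR adjusted p = 0.0213). Here the deposited gene table also put the groups apart, with a difference of 1.61 that did not pass.

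Among the other genes that passed on rebuilt counts, Glo1, the glyoxalase that clears a by-product of glycolysis, read 982, 1123 and 1069 CPM in pcDNA4c mCsnk2a1 and 388, 263 and 231 CPM in shRNA Control (1.85, SE 0.30, edgeR adjusted p = 0.00429). Olfm1, a secreted olfactomedin protein of neurons, read 184, 197 and 154 CPM in pcDNA4c mCsnk2a1 and 16.8, 10.1 and 17.1 CPM in shRNA Control (3.60, SE 0.64, edgeR adjusted p = 0.0114). Both were tight within groups on that scale. Ankrd33b read 435, 508 and 637 CPM in pcDNA4c mCsnk2a1 and 214, 140 and 148 CPM in shRNA Control. Atn1, a transcriptional co-repressor, read 142, 118 and 254 CPM in pcDNA4c mCsnk2a1 and 0, 0 and 2.94 CPM in shRNA Control. In pcDNA4c Control Atn1 read 175, 129 and 63.0 CPM, and in shRNA mCsnk2a1 117, 44.3 and 22.0 CPM, so shRNA Control was the group that differed. On the deposited gene table these 4 genes lay in the same direction and did not pass (edgeR adjusted p = 0.419 for Glo1, 0.270 for Olfm1, 0.355 for Ankrd33b and 0.407 for Atn1).

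Of genes taken in by the naming rule that did not pass, Ttc3, a ubiquitin ligase, read 867, 780 and 750 CPM in pcDNA4c mCsnk2a1, 170, 501 and 423 CPM in shRNA mCsnk2a1, 258, 201 and 135 CPM in shRNA Control, and 176 to 275 CPM in pcDNA4c Control (2.01 from shRNA Control, SE 0.44, edgeR adjusted p = 0.248). The vector libraries lay above all others there, while on rebuilt counts the lowest of them, at 507 CPM, lay below an shRNA mCsnk2a1 library at 586 CPM. Rpl26, a protein of the large ribosomal subunit, read 193, 301 and 255 CPM in pcDNA4c mCsnk2a1, 408, 411 and 386 CPM in shRNA mCsnk2a1, 80.9, 36.3 and 44.8 CPM in shRNA Control, and 21.7, 18.0 and 1.66 CPM in pcDNA4c Control. Its groups fell in 4 separate ranges, and the difference from shRNA Control was 2.21 (SE 0.65, edgeR adjusted p = 0.425). Prox1, a homeobox factor of horizontal and bipolar cells, read 307, 146 and 420 CPM in pcDNA4c mCsnk2a1 and 102, 221 and 70.3 CPM in shRNA Control (1.15, SE 0.56).

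On the lower side, apart from Rn7sk, the genes taken in by the naming rule and given here were near 0 in the vector group and scattered in the controls. In all 3 libraries 1489 tested genes were listed at 0 in pcDNA4c mCsnk2a1 and 521 in shRNA Control. Hmcn1, a matrix protein, read 3.94, 7.21 and 1.68 CPM in pcDNA4c mCsnk2a1 and 925, 17.9 and 570 CPM in shRNA Control (edgeR adjusted p = 0.0889). Coq4, of coenzyme Q synthesis, read 0, 0 and 0.336 CPM in pcDNA4c mCsnk2a1 and 13.0, 305 and 26.1 CPM in shRNA Control. Nav3, a neuronal microtubule regulator, read 1.31, 0.313 and 1.01 CPM in pcDNA4c mCsnk2a1 and 8.82, 24.4 and 350 CPM in shRNA Control. In each of the 3, the groups did not overlap, but the highest control library was more than 10 times the lowest.

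Ephx2, the soluble epoxide hydrolase, was listed at 0 in the 3 libraries of pcDNA4c mCsnk2a1, and read 37.9, 67.9 and 14.2 CPM in shRNA Control. It passed on rebuilt counts (edgeR adjusted p = 0.0335) and not on the deposited table (edgeR adjusted p = 0.230). Commd6, Etaa1 and Mthfd1 were listed at 0 in the vector group as well, and in shRNA Control they read 1.56 to 107 CPM, 14.9 to 42.5 CPM and 13.1 to 92.8 CPM. Because the gene values are not read counts, no fold is given for genes at 0. With at least 50 counts in 3 libraries required, genes with an unadjusted p under 0.05 numbered 489 above and 440 below.

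Macrophage markers were weak in both groups, while markers of other retinal cells were not absent. Of 25 tested entries for macrophages and microglia, 1 lay above and 5 below at an unadjusted p under 0.05. Of these entries 10 were listed at 0 throughout pcDNA4c mCsnk2a1 and 5 throughout shRNA Control. Among all 20267 genes tested, 3.67% lay above and 7.14% below at that p, with 1489 and 521 listed at 0. Lyz2, lysozyme, was listed at 0 in pcDNA4c mCsnk2a1 and read 1.04, 11.9 and 0 CPM in shRNA Control, against 295 to 391 CPM in pcDNA4c Control. Spp1, osteopontin, was listed at 0 in pcDNA4c mCsnk2a1, read 3.63, 0 and 0 CPM in shRNA Control, and 1705 to 2172 CPM in pcDNA4c Control. C1qc, of complement, read 35.0, 0 and 0.336 CPM in pcDNA4c mCsnk2a1 and was listed at 0 in shRNA Control. Lyz2, Spp1 and C1qc were thus at or near 0 in most libraries on both sides of the comparison. Some other listed markers were not. Cx3cr1 read 29.9 to 43.5 CPM in pcDNA4c mCsnk2a1 and 25.4 to 40.8 CPM in shRNA Control, and Ptprc 28.4 to 45.0 and 16.1 to 55.0 CPM. Because shRNA Control was chosen for holding few macrophage transcripts, low values there were built in. The filter took in pcDNA4c Control, so entries at 0 in both groups compared could still be tested.

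Lysosomal genes, which macrophages share with other cells, summed to 1388 to 1605 CPM in pcDNA4c mCsnk2a1, 969 to 1187 CPM in shRNA Control and 3764 to 4642 CPM in pcDNA4c Control. These 3 groups did not overlap. In shRNA mCsnk2a1 the sum was 1361 to 1636 CPM, a range that overlapped pcDNA4c mCsnk2a1. Apoe, the lipid carrier, read 75.2, 108 and 119 CPM in pcDNA4c mCsnk2a1, 116, 135 and 53.9 CPM in shRNA Control, and 926 to 1231 CPM in pcDNA4c Control, and its sign against shRNA Control was unsettled (-0.01, SE 0.43). Psap, the saposin precursor, differed by 0.25 (SE 0.41). Ctsl, cathepsin L, read 7.44, 63.0 and 41.0 CPM in pcDNA4c mCsnk2a1 and 105, 91.1 and 97.0 CPM in shRNA Control (-1.39, SE 0.56, edgeR adjusted p = 0.461), with no overlap. Mef2c, used as a marker of these cells and also a photoreceptor factor, read 4.37, 0 and 0.671 CPM in pcDNA4c mCsnk2a1 and 6.22, 2.98 and 7.38 CPM in shRNA Control.

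Bipolar markers lay above 0 in 15 of 19 genes (median 0.71), and without pcDNA4c mCsnk2a1 1 in 13 of 19 (median 0.44). The list summed to 1556 to 1687 CPM in pcDNA4c mCsnk2a1, 945 to 1344 CPM in shRNA Control and 603 to 735 CPM in pcDNA4c Control. In shRNA mCsnk2a1 it summed to 1342 to 2936 CPM, a range that spans pcDNA4c mCsnk2a1. Müller glia markers had 5 of 15 above 0 and a median of -0.48, a leaning that shrank to -0.15 on rebuilt counts and to -0.17 without pcDNA4c mCsnk2a1 1. They summed to 702 to 802 CPM in pcDNA4c mCsnk2a1 and 695 to 1131 CPM in shRNA Control, with Crym at 17.1, 1.57 and 7.05 CPM in pcDNA4c mCsnk2a1 and 18.7, 116 and 82.3 CPM in shRNA Control (-3.08, SE 1.03). In bulk samples a greater share of such cells and more RNA per cell cannot be told apart, and their part in the other results was not tested.

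The control groups set against each other give the scale on which these differences stand. Between shRNA Control and pcDNA4c Control, neither of which carries a Csnk2a1 construct, 14 genes passed (0.0691%), 3 higher and 11 lower in shRNA Control. Of the 4 genes called for pcDNA4c mCsnk2a1 against shRNA Control, 3 also passed between the controls, all with lower values in shRNA Control: they are the entries of 57 nucleotides. Abca1 passed between the controls too (-3.46, edgeR adjusted p = 0.0437), while mt-Nd5 differed there by 0.12 (edgeR adjusted p = 1). On rebuilt counts Atn1, Gm1821, Gm10222 and Rn7sk passed between the controls as well (edgeR adjusted p = 3.5e-05, 0.000587, 0.0335 and 0.0494). Atn1 and Gm1821 were lower in shRNA Control, and Gm10222 and Rn7sk higher. The 2 comparisons share the shRNA Control libraries.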

How the data were processed

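RNA of 12 libraries of 50 to 100 rods was analysed, 6 of them in the comparison. Per the submitters' processing notes the tools were kallisto 0.45.0 and edgeR 3.28 with mm10; which annotation release was used is not given. Of the deposited tables, that of genes gives estimated counts, unscaled between libraries, that of transcripts gives TPM, and the third gives a CPM signal for 11 libraries, equal to the estimated counts times 1 constant per library.

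Estimated counts were rounded and tested with edgeR 4.0.16 (R 4.3.3): filterByExpr with a minimum count of 10, TMM scaling, 1 quasi-likelihood fit of 4 groups, and Benjamini-Hochberg adjusted p under 0.05. Levels are TMM-scaled CPM, folds are log2, and an SE is the fold over the square root of the F statistic. The code was tested on simulated data. Alternatives used limma 3.58.1, DESeq2 1.42.0, other filters, scalings and left-out libraries, and counts rebuilt from TPM; 97.9% of 141196 transcripts matched the GENCODE M21 reference (GRCm38), and effective lengths came from 8830 genes with 1 transcript. For measures per library the test was a two-sided exact permutation over the 6 libraries.

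Comparisons, gene lists and the naming rule (up to 15 genes passing and not overlapping per direction, filled to 8 with genes short of the threshold, a fixed set, and up to 4 per list) were chosen with earlier results of these data known. Counts without molecular identifiers overstate precision, and gene values that follow TPM give no counting floor. Of the 4 genes called, 1 is not reported here, nor are some list members.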

Additional observations from a re-analysis of the deposited data

How the results depend on the processing

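The number of genes called depended on the test. Higher and lower calls, 4 and 0 in the fit as reported, came to 105 and 291 with DESeq2, 0 and 1 with limma voom, 13 and 7 with limma on log2 deposited CPM plus 1, 17 and 16 with 0.25 in place of 1, 72 and 69 with no filter on low counts, 0 and 0 with only the 6 libraries fitted, and 15 and 4 on rebuilt counts, an alternative chosen after seeing the data. DESeq2 size factors and scaling by library totals gave 4 and 1 each. Leaving out 1 library gave 3 to 14 higher and 0 to 3 lower. Thinning, leaving out mitochondrial and small structural RNA genes, and a filter of 50 counts gave 3 or 4 higher and 0 lower. Gm23935 passed in 17 of 20 alternatives. The control groups differed in 14 genes, and in 28 on rebuilt counts.

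With the replicate number as a block, 5 genes were called higher and 1 lower in the fit of 12 libraries, and 1 and 1 in that of 6. Same-numbered libraries of the groups compared did not deviate together (correlations of -0.0237, -0.0077 and -0.021). With so wide a spread between libraries, such values cannot exclude a shared origin of same-numbered samples. The fit as reported treated the samples as unpaired.

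Signs turned for the following genes under the named settings, with the log2 difference there; the cause was not tested. Csnk2a2 was at -0.35 and -0.53 on deposited CPM plus 1 and plus 0.25. Nrl was at -0.038 with voom, -0.017 by library totals, and -0.018 and -0.21 with the replicate block in 12 and 6 libraries. Arr3 was at -0.22 with voom. Apoe was at 0.093 with voom, 0.26 and 0.27 on deposited CPM plus 1 and plus 0.25, 0.0057 with the block in 6 libraries and 0.14 on rebuilt counts. Rn7s1 was at -0.043 with DESeq2 and with its size factors, -0.044 with the filter of 50 counts, -0.17 by library totals, -0.036 and -0.046 in 6 libraries without and with the block, -0.030 thinned and -0.052 on rebuilt counts. mt-Rnr1 was at -0.23 with voom and -0.088 by library totals. With 1 library left out the values ran from -0.43 to 0.70 for Nrl, -6.62 to 7.20 for Arr3, -0.31 to 0.24 for Apoe, -0.084 to 0.18 for Rn7s1, -7.19 to 0.89 for mt-Co2 and -5.23 to 0 for Spp1. Differences in genes detected, in mitochondrial shares and in the summed rod phototransduction and macrophage lists kept their direction in every alternative run. Sums of the other lists were not put through alternatives.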

Other observations

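Replication-dependent histone genes lay mostly below 0: of 48 tested, 11 were above 0 and 37 below, 9 with an unadjusted p under 0.05 below and 1 above. Over all genes tested 7.14% lay below and 3.67% above at that p. edgeR called 0 of them, and DESeq2 called 1 higher and 1 lower. The genes listed at 0 in all 3 libraries numbered 9 in pcDNA4c mCsnk2a1 and 1 in shRNA Control, against 1489 and 521 of all 20267 genes tested. Hist4h4, an H4 gene, read 53.8, 62.3 and 13.8 CPM in pcDNA4c mCsnk2a1 and 212, 91.1 and 167 CPM in shRNA Control (-1.86, SE 0.64, edgeR adjusted p = 0.461), without overlap. Hist1h2bn, an H2B gene, was listed at 0 in pcDNA4c mCsnk2a1 and read 20.7, 41.1 and 6.81 CPM in shRNA Control. Hist2h2aa1, an H2A gene with a near-identical neighbour between which counts may be split, went the other way. It read 89.2, 236 and 204 CPM in pcDNA4c mCsnk2a1 and 18.7, 7.15 and 57.9 CPM in shRNA Control (2.66, SE 0.73, edgeR adjusted p = 0.407). The neighbour, Hist2h2aa2, was listed at 0 in pcDNA4c mCsnk2a1 and read 62.2, 35.7 and 10.8 CPM in shRNA Control. The pair thus moved in opposite directions, and the difference of Hist2h2aa1 alone need not hold for both. Summed, the list stood at 1184 to 1785 CPM in pcDNA4c mCsnk2a1 and 1811 to 2266 CPM in shRNA Control. It stood at 1323 to 1511 CPM in pcDNA4c Control and 2630 to 3345 CPM in shRNA mCsnk2a1, so both pcDNA4c groups lay below both shRNA groups.

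Among 19 tested genes of progenitors and the cell cycle, 12 lay below 0, against 10883 of 20267 over all genes tested. Their sum was 273 to 891 CPM in pcDNA4c mCsnk2a1 and 386 to 459 CPM in shRNA Control, with Mki67 alone at 707 CPM in pcDNA4c mCsnk2a1 1 and at 0.627 and 0 CPM in libraries 2 and 3. Cdk1, the mitotic kinase, read 0, 0 and 1.34 CPM in pcDNA4c mCsnk2a1 and 78.8, 0 and 15.9 CPM in shRNA Control, and its partner Ccnb1 read 0, 0.313 and 0 CPM in pcDNA4c mCsnk2a1 and 14.0, 19.1 and 3.97 CPM in shRNA Control. Neither passed (edgeR adjusted p = 0.461 for both). Atf3 and Gadd45b, induced by stress, were listed at 0 in all vector libraries and read 5.95 to 44.8 and 2.27 to 14.3 CPM in shRNA Control. Col1a1, a collagen of connective tissue, was listed at 0 in pcDNA4c mCsnk2a1 and read 7.26, 0.595 and 174 CPM in shRNA Control.

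Of 15 small RNA pathway genes 8 lay above 0 (median 0.04, or 0.62 without pcDNA4c mCsnk2a1 1). The groups did not overlap for 4 above 0 and 0 below, against 4.35% and 7.67% of all genes tested. On rebuilt counts they did not overlap for 2 above and 1 below, against 986 and 1604 of all 20400 genes. Tnrc6a, the scaffold of the silencing complex, read 135, 369 and 161 CPM in pcDNA4c mCsnk2a1, 46.7, 61.3 and 25.0 CPM in shRNA Control and 97.0 to 288 CPM in pcDNA4c Control (2.32 from shRNA Control, SE 0.60, edgeR adjusted p = 0.403). Ago1, an Argonaute, read 131, 81.5 and 86.6 CPM in pcDNA4c mCsnk2a1 and 30.6, 8.93 and 24.4 CPM in shRNA Control (2.22, SE 0.73). Dicer1, which cuts hairpin precursors, read 130, 156 and 334 CPM in pcDNA4c mCsnk2a1 and 70.0, 63.1 and 95.3 CPM in shRNA Control (1.44, SE 0.59; 0.44 on rebuilt counts). Of 31 lysosome genes 17 lay above 0; Scarb2, an integral membrane protein of lysosomes, read 88.4, 131 and 134 CPM in pcDNA4c mCsnk2a1 and 24.9, 32.8 and 37.4 CPM in shRNA Control, and Lamp1 97.1, 78.3 and 103 CPM in pcDNA4c mCsnk2a1 and 12.4, 23.2 and 32.9 CPM in shRNA Control. None of these named genes passed with edgeR.

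Cytosolic ribosomal protein genes had 33 of 81 above 0 and a median of -0.08, with Rpl23 at 58.2, 101 and 99.0 CPM in pcDNA4c mCsnk2a1 and 261, 81.6 and 317 CPM in shRNA Control. Of the nuclear-encoded genes of oxidative phosphorylation 3 had an unadjusted p under 0.05, namely Ndufs1, of complex I, with a difference of 1.67 (SE 0.76), Uqcrh, of complex III, at 12.2, 44.8 and 45.3 CPM in pcDNA4c mCsnk2a1 and 136, 98.8 and 98.1 CPM in shRNA Control (-1.70, SE 0.69), and Atp5o, of the ATP synthase, with a difference of -1.44 (SE 0.63). By annotated type, 1.47% of 2993 long noncoding RNA genes lay above and 9.96% below at an unadjusted p under 0.05, against 4.12% and 6.61% of 15772 protein-coding genes. Long noncoding RNAs held 7.18% ± 1.34 of the counts in pcDNA4c mCsnk2a1 and 9.33% ± 0.457 in shRNA Control (SD, n = 3; exact permutation p = 0.1).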
